A study of Homo sapiens with 2 samples.

Results

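The genes described here are the aminoacyl-tRNA synthetases and a set of genes that respond to a shortage of amino acids, in human mesothelioma cells whose CD26 was lowered or raised. They were chosen by gene symbol, under a rule set with earlier results of these data known. A probe was taken when its symbol, current or older, was that of an aminoacyl-tRNA synthetase or of 1 of 18 amino acid stress genes, and when it had a value on at least 1 array. This gave 47 of the 24267 probes on the array, for 45 of 10752 named genes. The synthetases were 28 genes on 29 probes and the stress genes were 17 genes on 18 probes. Of the stress genes in the rule, CHAC1 was not matched to a probe with a value.

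An aminoacyl-tRNA synthetase joins an amino acid to its transfer RNA, so that the ribosome can read a codon as that amino acid. Most of these enzymes exist in a cytosolic and a mitochondrial form from separate nuclear genes, while GARS1 and KARS1, grouped here with the cytosolic enzymes, serve both compartments. When amino acids run short, uncharged tRNA activates a kinase that phosphorylates the translation factor eIF2, general translation slows, and the transcription factor ATF4 is made. ATF4 is known to activate genes for amino acid synthesis and uptake and many of the cytosolic synthetases, a program called the amino acid response or integrated stress response.

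The study used 2 two-colour arrays, 1 for each manipulation of CD26, the cell surface dipeptidyl peptidase encoded by DPP4. The first set CD26-depleted against control cells of the line ACC-MESO1 (n = 1 array). The second set cells of the line MSTO-211H that carried CD26 in the retroviral vector pLNCX2 against control cells of that line (n = 1 array). Both are established human mesothelioma cell lines, grown in the same serum-containing medium. Whether depletion was by siRNA or shRNA differs between the labels, which also leave unsaid how the controls were treated and whether the transfected cells were 1 clone. On both arrays the control cells carried Cy5 and the manipulated cells Cy3, with no dye swap, so a dye effect of a probe cannot be told apart from a change of the same sign on both arrays.

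All values below are deposited log2 ratios, manipulated over control, with a median of 0 over the probes of each array. A log2 ratio of 1 is a 2-fold difference, and a gene was called higher or lower at 2-fold. With 1 array per group there is no replicate spread and no test, and each value compares a single pair of RNA samples. The nearest thing to a measurement error is the spread between different probes of a gene, with a pooled SD of 0.42 after depletion and 0.45 after transfection. Of the 45 genes, 43 rested on 1 probe. DPP4, the manipulated gene, had log2 ratios of -3.92 and 5.51, in the direction of the labels. The values are ratios within a cell line and not levels, so the presence of mesothelial markers could not be checked. Of 6 measured mesothelial markers, 0 were past 2-fold after depletion and 2 were at least 2-fold lower after transfection. Of all genes, 503 of 10348 were past 2-fold after depletion and 1.37% were at least 2-fold lower after transfection. The markers ran from -1.31 for MSLN to 0.66 for UPK3B after transfection, with 3 below 0 and 3 above it.

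After CD26 depletion, 1 of the 44 measured members was at least 2-fold higher, and 4 members were lower by that much. Over all 10348 genes of that array, 3.3% were past 2-fold upward and 1.56% downward. The higher gene was SESN2, and the lower genes were PHGDH, VLDLR, TARS2 and SLC7A11. Centring on ribosomal protein genes moved every gene of this array up by 0.33. With it, 1 member was past 2-fold in each direction, and all genes of the array split into 790 higher and 43 lower in place of 342 and 161. After CD26 transfection, 1 of the 45 members, TARS2, was at least 2-fold higher and 0 were lower by as much, against 4.09% and 1.37% of the 9361 genes of that array. That centring moved the transfection array up by 0.29, left the same numbers of members called, and split all its genes into 727 higher and 46 lower in place of 383 and 128. The range of the members was -1.501 to 1.02 on the first array, and -0.53 to 2.18 on the second.

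**Figure D1:**
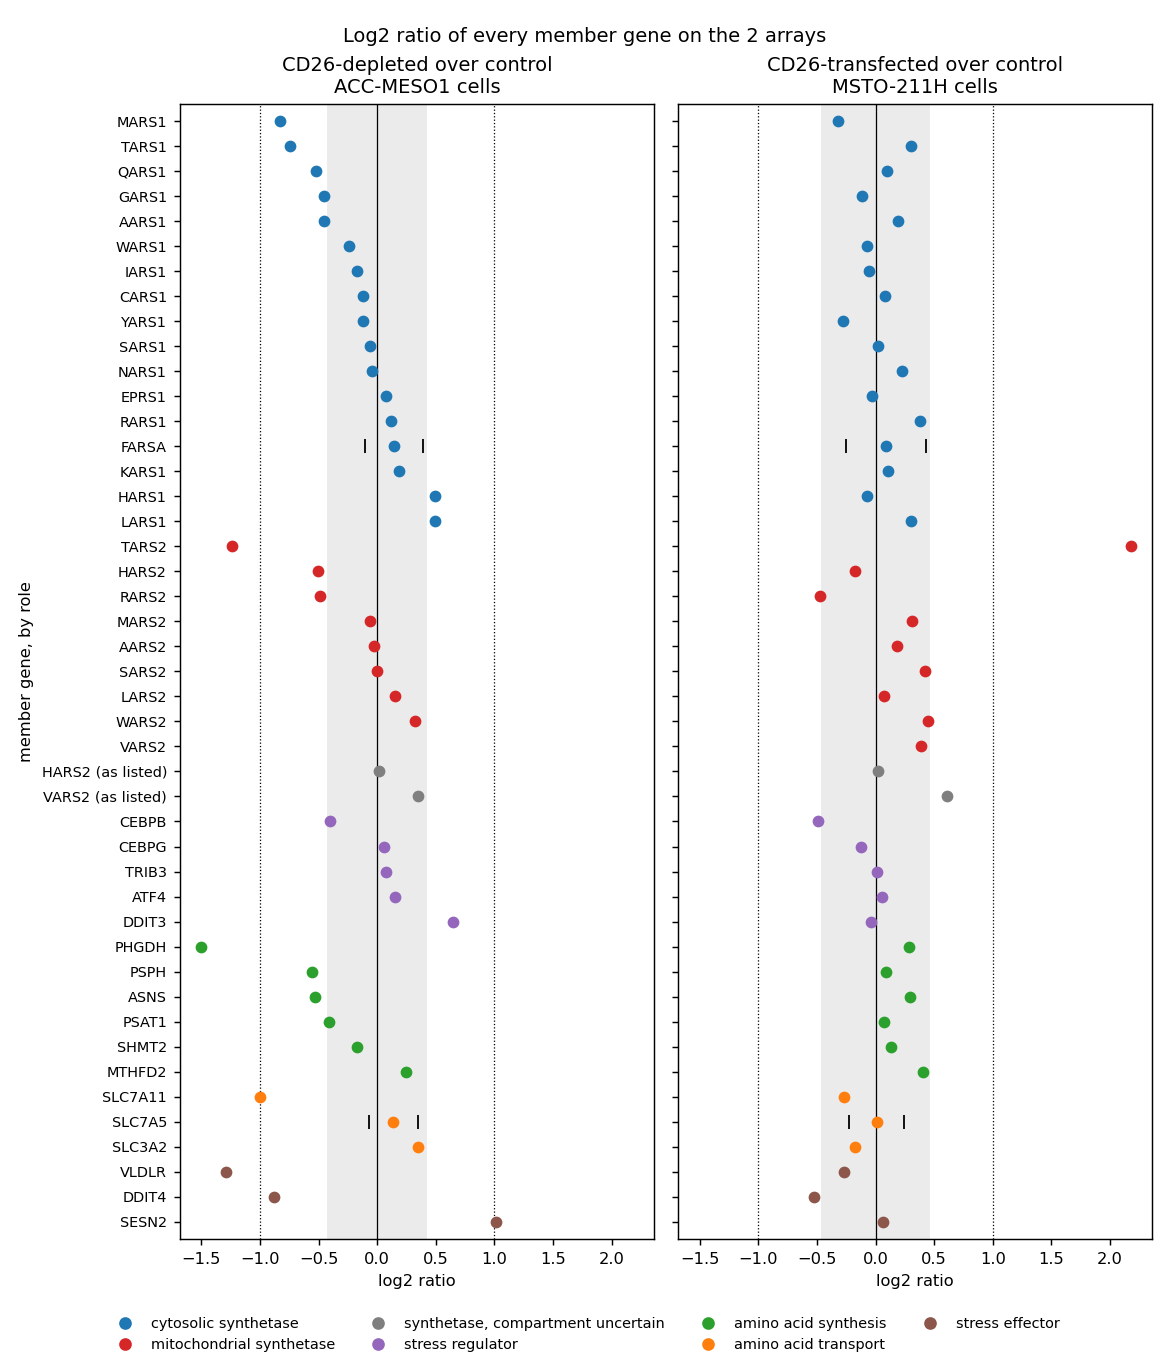
Log2 ratio of each of the 45 member genes, grouped by role and sorted within a role by the depletion array, in CD26-depleted over control ACC-MESO1 cells (left) and CD26-transfected over control MSTO-211H cells (right). Points are gene values, black ticks are the single probes of the 2 genes with 2 probes, the grey band is that SD between probes, and dotted lines mark 2-fold. TARS2 lies at -1.24 on the left and 2.18 on the right. Most other members lie inside the grey band on the right, as do 6883 of all 9361 genes of that array.

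The cytosolic synthetases, which charge tRNAs for the main protein synthesis of the cell, were all within 2-fold on both arrays. Most genes were, as 503 of all 10348 were past 2-fold after depletion and 511 of 9361 after transfection. After depletion, 11 of 17 cytosolic synthetases were below 0, with a median of -0.12 and a range from -0.83 for MARS1 to 0.49 for LARS1. Of all genes on that array 48.7% were below 0. After transfection, 7 of 17 were below 0, with a median of 0.08 and a range from -0.32 for MARS1 to 0.38 for RARS1. Of all genes on the second array 49.3% were below 0. All 17 lay within the SD between probes on the transfection array, and 10 of 17 did on the depletion array. Of all genes, 6883 of 9361 and 7348 of 10348 did. The depletion median was on the other side of 0, at 0.21, with the array centred on ribosomal protein genes. That centring moved every gene of the array up by 0.33, so the group kept its place among all genes.

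MARS1, which charges tRNA with methionine and so supplies the initiator, had log2 ratios of -0.83 after depletion and -0.32 after transfection. It was the lowest cytosolic synthetase on both arrays. TARS1, the threonine enzyme, had -0.74 and 0.31. The glutamine enzyme gene QARS1 had -0.52 and 0.10. These were the members of the group farthest below 0 in depleted cells, and on the transfection array they lay on either side of 0. The glycine enzyme gene GARS1 (-0.45 and -0.12) and the alanine enzyme gene AARS1 (-0.45 and 0.19) followed. At the other end after depletion were the leucine enzyme gene LARS1 (0.49 and 0.30) and the histidine enzyme gene HARS1 (0.49 and -0.08).

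The remaining cytosolic enzymes were close to 0. Depletion values ran from -0.24 for WARS1, the tryptophan enzyme, to 0.19 for KARS1, the lysine enzyme, and included IARS1 (-0.17), CARS1 (-0.13), YARS1 (-0.12), SARS1 (-0.06), NARS1 (-0.05), EPRS1 (0.07), RARS1 (0.11) and FARSA (0.14). FARSA encodes the catalytic subunit of the phenylalanine enzyme and had 2 probes, at -0.11 and 0.39 after depletion and at -0.25 and 0.43 after transfection. Its probes thus lay on either side of 0 on both arrays. FARSB, its partner subunit and no member by the rule, had 0.37 on both arrays.

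Several of the cytosolic synthetases are held in a multisynthetase complex in the cytosol. The 7 measured members of that complex (EPRS1, IARS1, LARS1, MARS1, QARS1, RARS1 and KARS1) had a median of 0.07 after depletion, with 3 below 0. The 10 measured cytosolic synthetases outside it had a median of -0.12, with 8 below 0. After transfection the medians were 0.10 and 0.05. The complex's scaffold genes AIMP1 (0.03 and 0.09) and EEF1E1 (0.05 and -0.29) were also close to 0.

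The element through which ATF4 acts, the C/EBP-ATF response element, has a core that was searched as TGATGNAA on both strands, with N for any base. Promoters were the RefSeq windows of GRCh38.p14, from 250 bases before to 50 after each annotated start, and a gene can have several. Of 43 member genes looked up by symbol, 36 had at least 1 promoter in the table, and 10 of these held the motif. Over the whole table, 3.62% of 35116 promoters and 4.46% of 27305 genes held it. By role, the motif was found in 7 of 15 cytosolic synthetases, 0 of 7 mitochondrial synthetases and 3 of 14 amino acid stress genes. A gene counted when at least 1 of its promoters held it. CARS1, GARS1, TARS1, ASNS and CEBPG held it in 1 of 2 promoters, and SLC3A2 in 1 of 3. A match is a string of letters, and no binding was measured. LARS1 and YARS1 were not in the promoter table, and neither were AARS2, VARS2, PSPH, SHMT2 and SLC7A11.

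The sites are shown because the cytosolic synthetases that hold them were all below 0 after depletion. Each window is read 5′ to 3′ on the strand of its gene, with the motif in capitals. Where TGATGNAA lies on the other strand the capitals read TTNCATCA.
MARS1: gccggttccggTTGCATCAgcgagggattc
TARS1: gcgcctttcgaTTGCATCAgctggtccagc
GARS1: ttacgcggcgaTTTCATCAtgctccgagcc
AARS1: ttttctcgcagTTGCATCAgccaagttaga
IARS1: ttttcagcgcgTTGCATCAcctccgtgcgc
CARS1: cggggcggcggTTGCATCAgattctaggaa
NARS1: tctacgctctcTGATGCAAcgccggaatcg
ASNS: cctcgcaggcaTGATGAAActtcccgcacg
CEBPG: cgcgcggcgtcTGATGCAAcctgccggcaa
SLC3A2: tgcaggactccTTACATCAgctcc

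In GRCh38.p14 the windows of the synthetases lie at chr12:57488053-57488082 (MARS1, plus strand), chr5:33440956-33440985 (TARS1, plus), chr7:30594834-30594863 (GARS1, plus), chr16:70289675-70289704 (AARS1, minus), chr9:92293692-92293721 (IARS1, minus), chr11:3057407-3057436 (CARS1, minus) and chr18:57621804-57621833 (NARS1, minus). Those of the stress genes lie at chr7:97872458-97872487 (ASNS, minus), chr19:33374060-33374089 (CEBPG, plus) and chr11:62881725-62881748 (SLC3A2, plus). The motif began from 187 bases before the annotated start, in AARS1, to 37 after it, in SLC3A2. In CARS1, MARS1 and TARS1 it began within 4 bases of the start. The same 8 letters, TTGCATCA, stood in MARS1, TARS1, AARS1, IARS1 and CARS1, and their other strand, TGATGCAA, in NARS1 and CEBPG.

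After depletion, all 7 cytosolic synthetases with the motif were below 0, from MARS1 at -0.83 to NARS1 at -0.05, with a median of -0.45. Of the 8 without it, 3 were below 0, with a range from -0.52 for QARS1 to 0.49 for HARS1 and a median of 0.09. The ranges of the groups overlapped, and the medians differed by -0.55 (with minus without). This split was made after the values were known, so it is a description with no test. Centred on ribosomal protein genes, 4 of 7 and 1 of 8 were below 0. That centring shifts every gene by the same value, so it cannot change the difference of the medians and is no check of it. With a separate centring of each autosome the difference was -0.53.

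On the transfection array the groups lay close together. After transfection, 3 of 7 cytosolic synthetases with the motif and 3 of 8 without it were below 0, with medians of 0.08 and 0.05. Over all 288 genes on the depletion array whose promoters held the motif, the median was 0.08, and 42.4% were below 0, compared with 0.0089 and 49.1% of the 8044 genes whose promoters lacked it. The 3 stress genes with the motif had depletion values of -0.53 (ASNS), 0.06 (CEBPG) and 0.35 (SLC3A2).

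**Figure D2:**
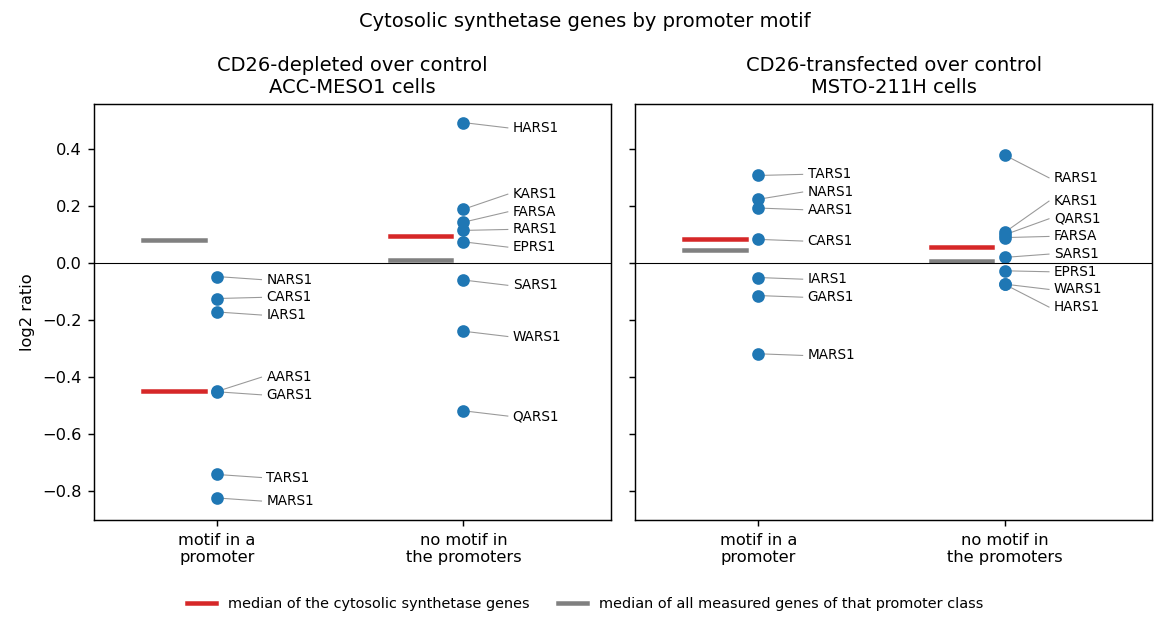
Log2 ratios of the 15 cytosolic synthetase genes with a promoter in the table, by whether a promoter held the motif TGATGNAA on either strand, on the depletion array (left) and the transfection array (right). Red bars are medians of the synthetases and grey bars medians of all measured genes of the same promoter class; on the left the 7 genes with the motif are all below 0 with a median of -0.45, and the 8 without it have a median of 0.09.

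The mitochondrial synthetases charge tRNAs for the few respiratory chain proteins that are made inside the organelle. After depletion, 6 of 8 were below 0, with a median of -0.04. After transfection, 2 of 9 were below 0, with a median of 0.32, compared with 0.0072 over all genes of that array. Of all genes, 48.7% and 49.3% were below 0. Without TARS2 the medians were -0.03 over 7 genes and 0.25 over 8. With a separate centring of each autosome the transfection median, with TARS2, was 0.18. Centring on ribosomal protein genes put the depletion median at 0.29, above 0, as it moved every gene of that array up by 0.33. The place of the group among all genes stayed the same.

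TARS2, which charges mitochondrial tRNA with threonine, was the member that differed most between the arrays. It was 2.36-fold lower in depleted ACC-MESO1 cells (log2 ratio -1.24), the 58th lowest of 10348 genes, and 4.53-fold higher in transfected MSTO-211H cells (2.18), the 21st highest of 9361 genes. It went in the direction of DPP4 on both arrays. Of all 8957 genes with a value on both arrays, 0.134% were past 2-fold in this way (lower in depleted and higher in transfected cells), and TARS2 was the only member among them. Both values came from the same probe, listed under the older symbol TARSL1. Centred on ribosomal protein genes its depletion value was -0.91, short of 2-fold.

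Its relatives in function and its neighbours on the chromosome had smaller values. TARS1, the cytosolic enzyme of the same amino acid, had -0.74 and 0.31, the same signs but smaller sizes. TARS3, a further threonyl-tRNA synthetase and no member by the rule, was above 0 on both arrays (0.36 and 0.55). By position, the 4 measured protein-coding genes on either side of TARS2 on chromosome 1 ranged from -0.69 to 0.09 after depletion and from -0.22 to 0.29 after transfection. The nearest of these were MRPS21 (-0.17 and -0.05) and ECM1 (0.09 and -0.11). None of these 8 neighbours was past 2-fold on either array, and neither were most genes.

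The other mitochondrial synthetases were within 2-fold on both arrays, as were most genes. HARS2, the histidine enzyme, had -0.51 and -0.18 on the probe listed under its older symbol HARSL. RARS2, the arginine enzyme, had -0.49 and -0.47. These were the members of the group below 0 on both arrays. WARS2, the tryptophan enzyme, was above 0 on both arrays (0.33 and 0.44), as was LARS2 (0.15 and 0.07). SARS2 (-0.0038 and 0.42), MARS2 (-0.06 and 0.32) and AARS2 (-0.03 and 0.18) were near 0 after depletion and above it after transfection. VARS2, on the probe listed as VARS2L, had a value after transfection alone (0.39).

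For 2 probes the listed symbol has 2 meanings, and they were kept apart from both compartments. VARS2 is the current name of the mitochondrial valine enzyme and an older name of the cytosolic one, VARS1, and the array lists VARS2L as well. The probe listed as VARS2 had 0.35 and 0.61. HARS2 is likewise an older name of DTD1, and the array lists HARSL as well. The probe listed as HARS2 had 0.02 on both arrays.

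For 8 amino acids both compartments' enzymes were measured. The mitochondrial enzyme had the higher ratio in 4 of 8 pairs after depletion and in 4 of 8 after transfection, with a median difference (mitochondrial minus cytosolic) of -0.14 and 0.20. The mitochondrial enzyme was the higher on both arrays for methionine (MARS1 and MARS2, 0.77 and 0.64), tryptophan (WARS1 and WARS2, 0.57 and 0.52) and serine (SARS1 and SARS2, 0.06 and 0.40). The cytosolic enzyme was the higher on both arrays for histidine (HARS1 and HARS2, -1.00 and -0.10), arginine (RARS1 and RARS2, -0.60 and -0.85) and leucine (LARS1 and LARS2, -0.34 and -0.23). The alanine pair (AARS1 and AARS2) differed by 0.43 and -0.01. The threonine pair (TARS1 and TARS2) had differences of opposite sign, -0.50 after depletion and 1.87 after transfection. Each difference is between 2 single probes, and the SDs between probes were 0.42 and 0.45. Serine and leucine on both arrays, and histidine and alanine after transfection, differed by less than that SD. With no dye swap, a difference of the same sign on both arrays cannot be told apart from a dye effect of the probes.

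Among the stress genes, the transcriptional regulators were within 2-fold on both arrays, as were most genes. DDIT3 after depletion and CEBPB after transfection lay outside the SD between probes. ATF4 itself had 0.15 after depletion and 0.05 after transfection; its protein is controlled largely at translation, which these arrays do not measure. DDIT3, encoding the stress factor CHOP, had 0.65 and -0.04. CEBPB, a partner of ATF4, was below 0 on both arrays (-0.41 and -0.49). CEBPG, a further partner (0.06 and -0.13), and TRIB3, a pseudokinase that holds back ATF4 and CHOP (0.07 and 0.02), were within 0.2 of 0. Of the 5 genes, 1 was below 0 after depletion and 3 after transfection.

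The enzymes that make amino acids and feed one-carbon metabolism had medians on different sides of 0 on the 2 arrays. After depletion 5 of 6 were below 0, with a median of -0.47, and after transfection 6 of 6 were above 0, with a median of 0.21. The share of all genes above 0 on the transfection array was 50.7%. Centred on ribosomal protein genes, 4 of 6 were below 0 after depletion, with a median of -0.14. After transfection 6 of 6 were above 0 with it, with a median of 0.49. That centring moved all genes up, by 0.33 and 0.29. All 6 transfection values were within the SD between probes, as were those of 6883 of all 9361 genes.

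PHGDH, which takes the first step of serine synthesis from glycolysis, was 2.83-fold lower in depleted cells (log2 ratio -1.501), the 22nd lowest gene of that array, and had 0.28 in transfected cells. It stayed past 2-fold with each centring tried. PSAT1, the next enzyme of the path, had -0.41 and 0.07, and PSPH, the last, had -0.56 and 0.09. The 3 steps of serine synthesis were thus below 0 after depletion and above 0 after transfection, and PHGDH was the step past 2-fold. SHMT2, which passes a carbon from serine to folate in the mitochondrion, had -0.17 and 0.13. MTHFD2, the folate enzyme that follows it, was above 0 on both arrays (0.24 and 0.40). ASNS, asparagine synthetase, had -0.53 and 0.29.

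The transporter genes showed 1 value past 2-fold. SLC7A11, the cystine carrier of the exchanger that supplies cysteine for glutathione, was 2.01-fold lower after depletion (-1.005, just past the threshold) and had -0.27 after transfection. With centring on ribosomal protein genes its depletion value was -0.68. SLC3A2, the heavy chain that SLC7A11 and SLC7A5 share, had 0.35 and -0.17. SLC7A5, the large neutral amino acid carrier, had a mean of 0.14 and 0.01 over 2 probes, at -0.07 and 0.35 after depletion and at -0.23 and 0.25 after transfection. The light and heavy chain of the cystine exchanger thus had opposite signs after depletion.

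The stress effectors lay near the ends of the members' range after depletion. SESN2, a leucine sensor that holds back mTORC1 and also a p53 target, was 2.02-fold higher after depletion (1.02) and had 0.07 after transfection. It was just past 2-fold, and at 0.98 with a separate centring of each autosome. DDIT4, a further inhibitor of mTORC1, was below 0 on both arrays (-0.89 and -0.53) and was the lowest member after transfection. VLDLR, a lipoprotein receptor, was 2.44-fold lower after depletion (-1.29) and had -0.27 after transfection. With centring on ribosomal protein genes VLDLR was at -0.96. The 2 mTORC1 inhibitors thus had opposite signs after depletion.

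Over the 17 stress genes, the median was -0.17 after depletion and 0.02 after transfection. The SD over these genes was 0.68 after depletion and 0.26 after transfection, while all genes had 0.48 and 0.50. With centring on ribosomal protein genes the depletion median was 0.16, above 0. Every gene of that array moved up by 0.33 with it, so the place of the stress genes among all genes stayed the same.

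CD26 was lowered on one array and raised on the other, so a gene that tracked it would change sign between arrays. Signs were opposite for 20 of the 44 members with both values (45.5%), against 46.9% of all 8957 such genes. Of the 20, 15 were below 0 after depletion and above 0 after transfection (34.1% of the 44 members), and 5 the reverse (11.4%). Over all genes the shares were 22.9% and 24.0%. With centring on ribosomal protein genes 12 members had opposite signs. Both arrays shift upward under it, by 0.33 and 0.29, and this alone changes the sign of any gene just below 0. The share of all genes with opposite signs was not computed for that setting, so the 12 cannot be compared with the 46.9%. TARS2 was the only member of opposite signs with at least 0.5 in size on both arrays. The Pearson correlation between the arrays across the 44 members was -0.05, and 0.33 without TARS2, compared with 0.06 across all genes. These are correlations across genes, which are not independent and share the dye layout of the arrays.

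**Figure D3:**
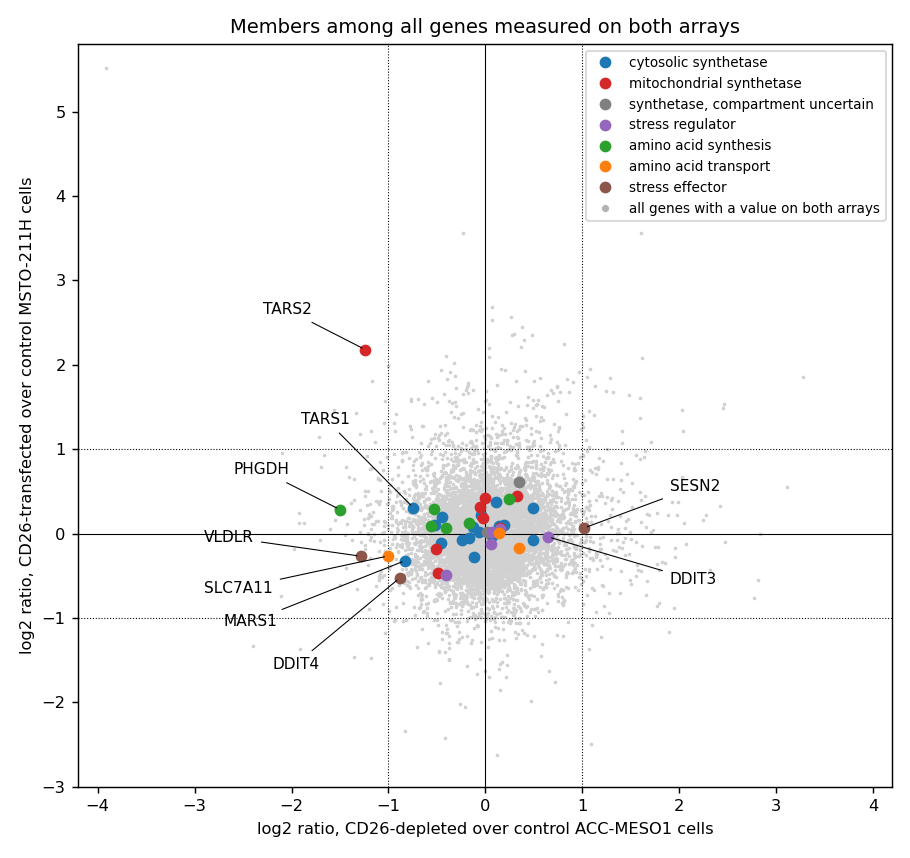
Log2 ratio after CD26 depletion in ACC-MESO1 cells (x axis) against log2 ratio after CD26 transfection in MSTO-211H cells (y axis), with the 44 members measured on both arrays coloured by role and all 8957 genes in grey. Dotted lines mark 2-fold; TARS2 is alone among the members in the upper left corner, beyond 2-fold on both axes.

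Other genes of the pathway were taken from lists by function. Of 29 further genes named as ATF4 targets, 20 were measured after depletion, with 1 past 2-fold upward, 2 past it downward and a median of 0.04. Over all genes of that array 3.3% were past 2-fold upward and 1.56% downward. The higher ATF4 target was the stress cytokine gene GDF15 (1.77), which had -0.86 after transfection. The lower ATF4 targets were CBS, which begins the making of cysteine from homocysteine (-1.08, and 0.85 after transfection), and SLC1A4, a carrier of alanine and serine (-1.13, with no value after transfection). CTH, the enzyme after CBS, had -0.61 and -0.48. After transfection 0 of 17 ATF4 targets were past 2-fold, with a median of 0.12, against 4.09% upward and 1.37% downward of all genes. CBS lay within 2-fold after transfection, with the sign opposite to that after depletion.

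The eIF2 kinases, phosphatase subunits and the subunits of eIF2 and its exchange factor eIF2B were within 2-fold on both arrays in 13 of 13 cases, with medians of 0.11 and 0.22. Most genes were within it too, with 503 of all 10348 and 511 of 9361 past 2-fold. EIF2AK4, which encodes the kinase that senses uncharged tRNA, had 0.14 and 0.52, and EIF2AK3, which encodes the kinase that senses stress of the endoplasmic reticulum, had 0.64 and 0.35. PPP1R15A, which is induced by the stress response and helps remove the phosphate from eIF2, had 0.74 and -0.02. It was the highest of the list after depletion, and PPP1R15B, a further phosphatase subunit, was the lowest (-0.52, and -0.26 after transfection). Of the 13 genes, 5 were below 0 after depletion and 4 after transfection, against 48.7% and 49.3% of all genes. The highest after transfection was EIF2S1, the subunit that is phosphorylated (0.85), and the lowest was EIF2AK1, the heme-regulated kinase (-0.76).

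Endoplasmic reticulum chaperones and unfolded protein response genes had medians of -0.13 over 14 genes and 0.07 over 12. The ubiquitin ligase gene SYVN1 (-1.32 after depletion) was the gene past 2-fold, with no value on the other array. The chaperone HSPA5 had -0.16 and 0.04. Genes by which mTORC1 senses amino acids had medians of 0.03 over 11 and -0.03 over 12. RRAGD, a Rag GTPase, was at least 2-fold higher after transfection (1.59), with no value after depletion. Its relative RRAGB had -0.82 and 0.97. Over all genes, 1.56% were past 2-fold downward after depletion and 4.09% upward after transfection.

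**Figure D4:**
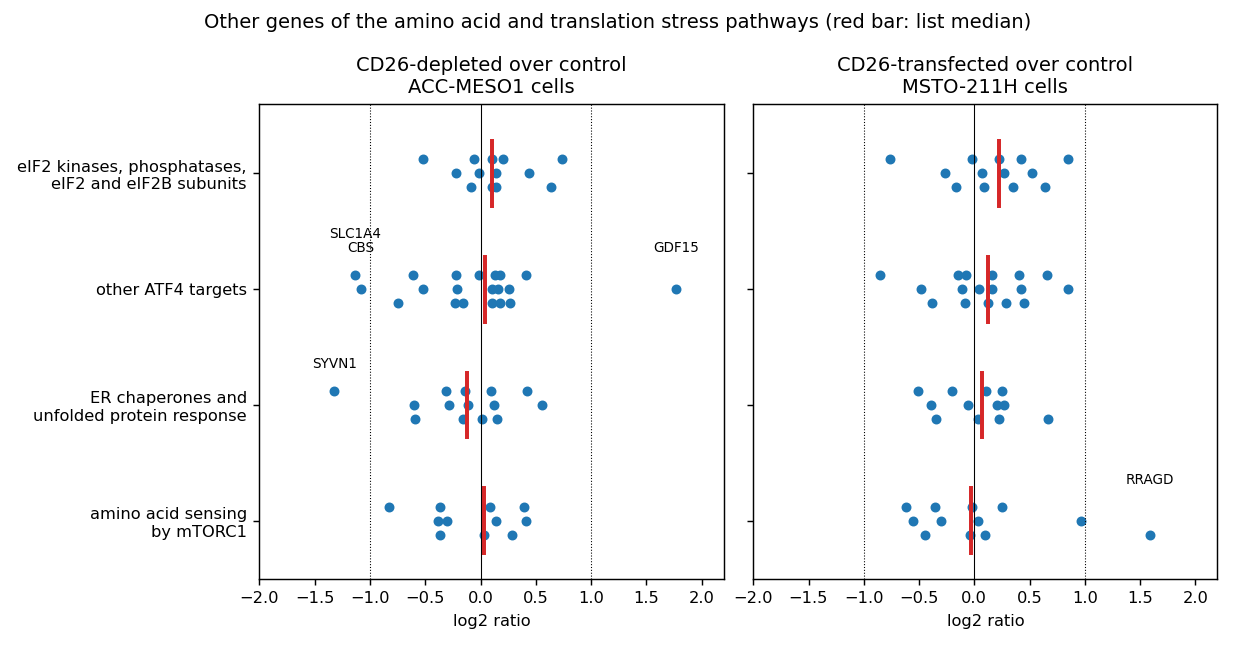
Log2 ratios of genes from 4 further lists of the amino acid and translation stress pathways, on the depletion array (left) and the transfection array (right). Points are genes, red bars are list medians, dotted lines mark 2-fold and genes past it are named; the medians lie between -0.13 and 0.22.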

How the data were processed

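Total RNA of cultured cells was extracted, amplified by an amino allyl method and coupled to dyes, per the labels' protocols. The authors deposited normalized log2 ratios of manipulated over control cells, and the direction is given per the labels. The sources used here name no scanner, background correction or normalization method. Intensities of the channels were not analysed here, so dim and bright probes could not be told apart.

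The array annotation gave 1 symbol for 13395 probes and none for 10872. Symbols were updated through RefSeq (GRCh38.p14), with ambiguous older symbols kept as listed except SARS, GARS, QARS and MARS, read as the cytosolic synthetases. Probes of a gene were averaged. No test was possible with 1 array per group, and precision is limited by the number of arrays. Members, lists and the motif were chosen with earlier results of these data known. All members could be named, as could DPP4 and list members past 2-fold or at a list's extremes. CTH, HSPA5, RRAGB, some eIF2 kinase genes and the neighbours of TARS2 were chosen after their values were seen. Alternatives were other centrings, a common spread, other probe rules, genes on both arrays and thresholds of 0.5 and 1.5. Counting was tested on simulated data with far less noise than these arrays, which checks the counting code and not the 2-fold calls. Python 3.11.15, numpy 2.4.6 and pandas 2.3.3 were used.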

Additional observations from a re-analysis of the deposited data

How the results depend on the processing

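Of 72 values of the 11 summary results under alternatives, 57 stayed near the reported value (counts within 1.5 times, medians within 0.1, or 0.2 with the same sign). Centring on ribosomal protein genes, which moved every gene up by 0.33 after depletion and 0.29 after transfection, moved most of the rest. It gave 1 member at least 2-fold lower after depletion, 12 members of opposite signs, depletion medians of 0.21 (cytosolic synthetases), 0.29 (mitochondrial) and 0.16 (stress genes), and transfection medians of 0.37, 0.60 and 0.30. For the 12 members of opposite signs, the matching share of all genes was not computed. With a separate centring of each autosome, 0 members were at least 2-fold higher after depletion. At a threshold of 0.5, 2 members were higher and 11 lower after depletion, and 2 higher and 1 lower after transfection. At 1.5, 0 were higher and 1 was lower after depletion. The shares of all genes past these 2 thresholds were not computed, so these counts have nothing to be set beside. The other probe rules moved none of the 11, and a common spread and restriction to genes on both arrays none of the 10 run under them, which left out the count of opposite signs. These alternatives could change little. Of the 45 members, 43 had 1 probe and 44 had values on both arrays, and the SDs over all genes were 0.48 and 0.50. Values that stayed near under them, most of the 57, are thus no measure of robustness. No paired analysis was possible because each group has 1 array. Signal over background is unknown, so noise of dim probes could not be assessed.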
